A study of Arabidopsis thaliana with 14 samples.

Results

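The genes described are 7 members of the xyloglucan endotransglucosylase/hydrolase (XTH) family of Arabidopsis thaliana, XTH16 (AT3G23730), XTH18 (AT4G30280), XTH19 (AT4G30290), XTH20 (AT5G48070), XTH27 (AT2G01850), XTH32 (AT2G36870) and XTH33 (AT1G10550). They were taken by name from the array annotation, where XTH27 stands under its older symbol EXGT-A3, and each has 1 probe set, the group of probes on the array that reports a gene. They are 7 of 13356 genes named by a probe set of 1 gene. Of the 33 genes of the family, 3 others (XTH21, XTH26 and XTH29) have a named probe set, and the remaining ones were not analysed here. RNA was hybridised to 14 arrays in 7 groups of 2. Wild-type seedlings of the Col strain, 7 days old, had been grown in the dark, in the dark with brassinolide (BL, called BR in some labels), in the dark and then 2 hours of light, or in the dark with BL and then 2 hours of light. Seedlings of det2, a mutant deficient in brassinosteroids, had been grown for 7 days in the dark, for 7 days in the light, or to 14 days in the light and then kept 8 hours in the dark. The dose and duration of BL, the light used and the det2 allele are not given in the sources used here.

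Xyloglucan is a branched polymer that coats and ties cellulose microfibrils in the growing plant cell wall. XTH enzymes cut a xyloglucan chain and either join the new end to another chain or, in a few members, release it by hydrolysis, and so they remodel the wall as cells enlarge. Brassinosteroids are steroid hormones that promote cell elongation. The protein DET2 is a steroid reductase in their synthesis, and det2 seedlings grown in darkness stay short and open their cotyledons, in contrast to the long hypocotyl of dark-grown wild type. Light slows elongation of the hypocotyl and opens the cotyledons.

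Signals are linear array units, deposited already scaled, and only values of the same gene are compared. Array medians were 187.6 to 215.9 on the 8 wild-type arrays and 212.4 to 218.8 on the 6 det2 arrays, and the log2 signals of replicates had correlations of at least 0.963 across probe sets. The highest signal of an array was 18321 to 21956 in wild type and 25300 to 47533 in det2, and the labels give no hybridisation date, so a batch of arrays and the genotype cannot be told apart. The level of DET2 itself could not be read, because the annotation used here names no probe set for it. All 7 members passed the filter on low values. Whole seedlings were sampled, so fewer cells of a type and less RNA per cell cannot be told apart in any difference below.

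**Figure D1:**
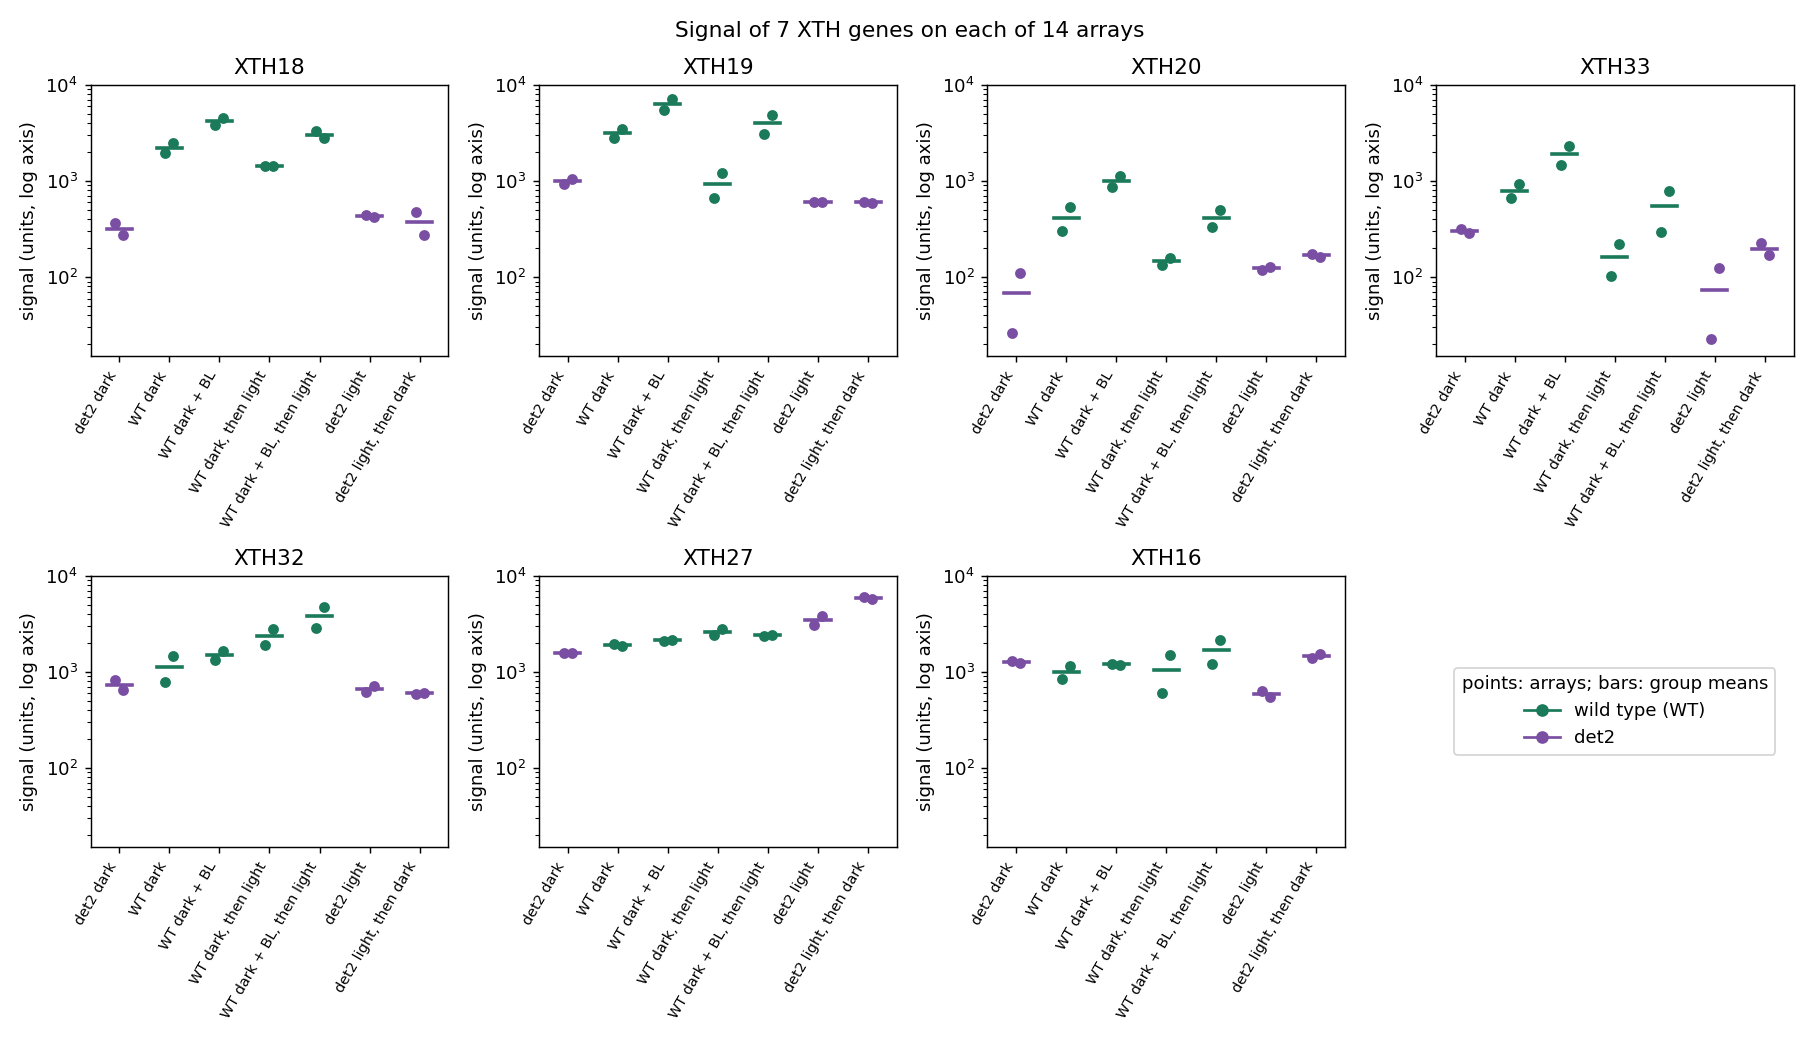
Signal of the 7 XTH genes (log axis, array units) in the 7 groups, with a point for each array and a bar at the group mean, green for wild type (WT) and purple for det2. XTH18, XTH19, XTH20 and XTH33 are highest in BL-treated dark wild type, XTH32 in BL-treated wild type moved to light and XTH27 in det2 shifted from light to dark.

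XTH18, XTH19 and XTH20 belong to a close subgroup of the family known for expression in roots, where enzymes of the subgroup act in elongating cells. In the reference annotation XTH18 lies between XTH24 and XTH19 on chromosome 4, so XTH18 and XTH19 are neighbours. XTH18 read 1962 and 2501 in dark wild type, 3856 and 4481 with BL, 1446 and 1424.5 after light, and 3308.5 and 2789.7 with BL and light. In det2 it read 366 and 272 in the dark, 444 and 421 in the light, and 481 and 276 after the dark shift. All 8 wild-type arrays lay above all 6 det2 arrays for XTH18, and the 4 wild-type groups did not overlap each other, whereas in det2 the dark shift group overlapped both of the others.

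XTH19 read 2783 and 3482 in dark wild type, 5464 and 7116 with BL, 666 and 1213 after light, and 3081 and 4894 with BL and light. In det2 it read 924 and 1057 in the dark, 599 and 607 in the light, and 611 and 587 after the dark shift. The order of means ran from 6290 in BL-treated dark wild type to 599 in the dark shift group. BL-treated seedlings moved to light overlapped dark wild type, wild type after light overlapped dark det2, and both det2 groups that had been in light overlapped each other.

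XTH20 read 299 and 532.5 in dark wild type, 867 and 1118.5 with BL, 135 and 159 after light, and 332 and 497 with BL and light. Its det2 signals were 26 and 112 in the dark, 120 and 129 in the light, and 176 and 163 after the dark shift. XTH20 was thus highest with BL in the dark and lowest in dark det2, where the lower array stood far under all others. Dark wild type overlapped BL-treated wild type moved to light, and no other neighbours in the order of means overlapped.

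XTH33 encodes a family member with a membrane-spanning region near its start, which anchors it at the plasma membrane. It read 664 and 924 in dark wild type, 1457 and 2326 with BL, 102 and 219 after light, and 292 and 796 with BL and light. In det2 it read 320.4 and 290.5 in the dark, 23 and 123 in the light, and 228 and 169.7 after the dark shift. The ratio of the highest to the lowest group mean was 25.9, the widest of the 7 genes, and only BL-treated dark wild type stood above all other arrays. Light-grown det2 and wild type after light, which had the lowest means, overlapped each other, and BL-treated wild type moved to light overlapped both dark wild type and dark det2.

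XTH32 is a member of the small clade that also holds the xyloglucan hydrolase XTH31. It read 777 and 1462 in dark wild type, 1333 and 1656 with BL, 1918 and 2778 after light, and 2880 and 4733 with BL and light. In det2 it read 817 and 654 in the dark, 612 and 709 in the light, and 595 and 601 after the dark shift. Both groups moved to light lay above all other arrays of XTH32, while both dark wild-type groups overlapped each other and untreated dark wild type also overlapped dark det2.

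XTH27, also called EXGT-A3, is known for a part in forming the water-conducting cells of leaf veins. It read 1957 and 1874 in dark wild type, 2115 and 2145 with BL, 2413 and 2757 after light, and 2361 and 2426 with BL and light. In det2 it read 1588 and 1583 in the dark, 3078 and 3765 in the light, and 6016 and 5664 after the dark shift. XTH27 was therefore lowest in dark det2 and highest in det2 that had been in the light, and wild type lay between with a narrow range of 1874 to 2757.

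XTH16, an XTH whose own role is less studied, read 835.5 and 1145 in dark wild type, 1219 and 1185 with BL, 602 and 1487 after light, and 1200.3 and 2137 with BL and light. Its det2 signals were 1301 and 1222 in the dark, 634 and 541 in the light, and 1405 and 1543 after the dark shift. Its group means spanned a ratio of 2.84, the smallest of the 7, and light-grown det2 lay below every other array except 1 of wild type after light (602). Wild type after light overlapped each of the other wild-type groups, whereas BL-treated dark wild type lay above untreated dark wild type and dark-shifted det2 above dark det2.

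BL in the dark was compared with no BL to ask which of these genes answer to added hormone. All 7 genes had higher means with BL, by 0.15 to 1.27 on the log2 scale, and 0 of 7 passed the test after adjustment over all probe sets. Across all 17787 probe sets tested 1.53% rose and 1.89% fell, and the members' median change was 0.90 against 0.05 over all probe sets. At an unadjusted p under 0.05 (limma) there were 4, all higher, beside 2615 of 17787 probe sets in either direction. XTH18 stood at 0.90 ± 0.23 (SE, adjusted p = 0.0522) and XTH19 at 1.0 ± 0.27 (adjusted p = 0.0616). XTH20 stood at 1.27 ± 0.41 (adjusted p = 0.137) and XTH33 at 1.22 ± 0.55 (adjusted p = 0.321). In these 4 genes both treated arrays lay above both untreated ones, but so they did in XTH16 (0.29 ± 0.34) and XTH27 (0.15 ± 0.13). The share of all probe sets that separate in this way was not computed, so nothing is read from the separation.

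The replicate number changed the call for BL in the dark. With it as a block in the wild-type arrays, 3 of 7 passed, XTH18 (adjusted p = 0.0225), XTH19 (adjusted p = 0.000605) and XTH20 (adjusted p = 0.048), among 1367 probe sets in place of 608. Within replicate 1 and within replicate 2, BL moved XTH19 by 0.97 and 1.03, XTH18 by 0.97 and 0.84, XTH20 by 1.49 and 1.05, and XTH33 by 1.12 and 1.32 on the log2 scale. The replicates were less alike for XTH32 (0.77 and 0.18) and XTH16 (0.54 and 0.05), and XTH27 moved by 0.11 and 0.19. XTH19, XTH20, XTH32 and XTH33 read higher on the array numbered 2 in all 4 wild-type groups, as did 13.5% of all probe sets, with 19.3% lower in all 4.

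After the move to light, BL-treated seedlings had more XTH18 and XTH19 transcript than untreated ones. XTH19 was 4.26-fold higher with BL, at 2.09 ± 0.27 on the log2 scale (SE, adjusted p = 0.00101), and XTH18 was 2.1-fold higher, at 1.07 ± 0.23 (adjusted p = 0.0198). These 2 of 7 rose and 0 fell, against 2.17% of all probe sets that rose and 2.08% that fell. Of the other genes, XTH33 stood at 1.58 ± 0.55 (adjusted p = 0.145), XTH20 at 1.38 ± 0.41 (adjusted p = 0.0883), XTH16 at 0.75 ± 0.34, XTH32 at 0.67 ± 0.29 and XTH27 at -0.11 ± 0.13. With the replicate block 5 of 7 passed, among 1554 probe sets in place of 756. The block added XTH20 (adjusted p = 0.0293), XTH32 (adjusted p = 0.0139) and XTH33 (adjusted p = 0.0297). The fold of XTH33 was 1.84 without BL-treated light replicate 2 (adjusted p = 0.614) and 4.86 without BL-treated light replicate 1 (adjusted p = 0.0619). That of XTH16 was 1.08 without untreated light replicate 1 (adjusted p = 0.922) and 2.62 without untreated light replicate 2, where it passed (adjusted p = 0.0175). XTH18 no longer passed without any 1 of the 4 arrays (at most adjusted p = 0.0984), and XTH19 passed without each of them (at most adjusted p = 0.0114).

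Whether BL acted differently in light and in darkness was tested as an interaction. None of the 7 passed, and 0% of all probe sets passed higher and 0% lower in limma (662 of 17787 at an unadjusted p under 0.05). With the replicate block 5 probe sets passed, and 2 in wild-type arrays alone with that block, none of them a member. XTH19 had the largest interaction of the 7, with a BL change 1.09 ± 0.37 greater in light (SE, 95% interval 0.28 to 1.90, unadjusted p = 0.0122 by limma's moderated test across all probe sets, adjusted p = 1), and it was the only member with an unadjusted p under 0.05. With the block its adjusted p was 0.092, and 0.382 in wild-type arrays alone with the block. Within replicate 1 and within replicate 2, BL moved XTH19 by 2.18 and 2.00 in light, beside the 0.97 and 1.03 in the dark. The intervals of the other 6 all included 0.

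In dark-grown det2, transcripts of the root-expressed subgroup were far lower than in dark wild type. XTH18 was 6.73-fold lower, a fall of 2.75 ± 0.23 on the log2 scale (SE, adjusted p = 4.06e-06). XTH20 was 5.67-fold lower (-2.50 ± 0.41, adjusted p = 0.000551) and XTH19 was 3.12-fold lower (-1.64 ± 0.27, adjusted p = 0.00048). The 2 dark det2 arrays of XTH20 differ, and its fold lay between 3.25 and 9.92 when dark det2 replicate 1 or replicate 2 was left out.

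Counted over the members, 3 of 7 fell and 0 rose in det2, where 17.9% of all probe sets fell and 19.2% rose, so this share is to be read against a mutant that differs widely. XTH33 stood at -1.32 ± 0.55 (adjusted p = 0.0766), XTH32 at -0.53 ± 0.29, XTH27 at -0.27 ± 0.13 and XTH16 at 0.36 ± 0.34. With the replicate block XTH33 (adjusted p = 0.0196) and XTH32 (adjusted p = 0.0121) also fell. XTH18, XTH19 and XTH20 passed under every alternative run for this comparison, quantile normalization between arrays included.

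The extremes of brassinosteroid supply in darkness are det2 and BL-treated wild type. Between them XTH20 differed 13.7-fold (-3.77 ± 0.41, SE), XTH18 12.6-fold (-3.65 ± 0.23), XTH19 6.23-fold (-2.64 ± 0.27) and XTH33 5.78-fold (-2.53 ± 0.55), all lower in det2, with an adjusted p of at most 0.00303. XTH32 fell by 1.01 ± 0.29 (adjusted p = 0.0164) and XTH27 by 0.42 ± 0.13 (adjusted p = 0.0236). In all 6 of 7 fell and 0 rose, against 19.1% and 18.9% of all probe sets, and the median change was -2.53 against 0.05. XTH16, at 0.07 ± 0.34 with a 95% interval of -0.67 to 0.80, did not pass. XTH27 no longer passed without any 1 of the 4 arrays (at most adjusted p = 0.09) or under quantile normalization (adjusted p = 0.0587), and XTH32 not without dark det2 replicate 2 (adjusted p = 0.109) or dark BL-treated replicate 2 (adjusted p = 0.103). The fold of XTH20 lay between 7.84 and 23.8 without dark det2 replicate 1 or replicate 2. This comparison shares its arrays with those of BL and of det2 in the dark, so it is not separate evidence.

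**Figure D2:**
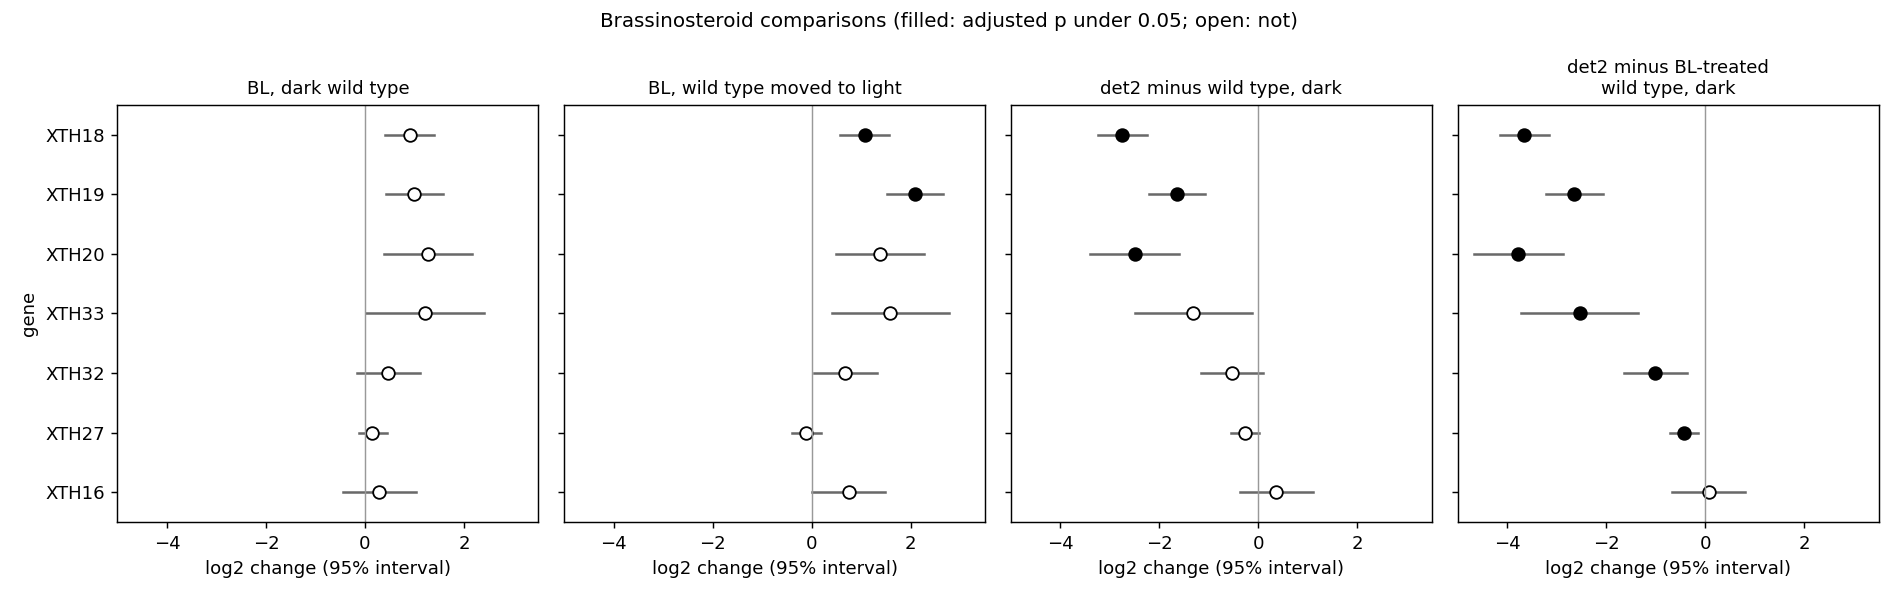
Log2 change of each XTH gene (point, with its 95% interval from the fit, not adjusted for many tests) for BL in dark wild type, BL in wild type moved to light, dark det2 minus dark wild type and dark det2 minus dark BL-treated wild type, filled where the adjusted p was under 0.05. XTH18, XTH19 and XTH20 lie to the right of 0 with BL and to the left in det2, and XTH16 and XTH27 lie nearest to 0 in dark det2 against wild type.

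Moving dark-grown wild type to light for 2 hours split the genes. XTH33 was 4.79-fold lower, a fall of 2.26 ± 0.55 on the log2 scale (SE, adjusted p = 0.0104), XTH19 was 3.42-fold lower (-1.77 ± 0.27, adjusted p = 0.000377) and XTH20 was 2.56-fold lower (-1.36 ± 0.41, adjusted p = 0.0346). XTH32 rose 2.15-fold (1.10 ± 0.29, adjusted p = 0.0176) and XTH27 rose 1.34-fold (0.43 ± 0.13, adjusted p = 0.0378). XTH18 stood at -0.62 ± 0.23 (adjusted p = 0.08, and 0.0494 with the replicate block) and XTH16 at -0.04 ± 0.34.

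Thus 2 of 7 rose and 3 fell with light, against 10.1% and 9.76% of all probe sets. Only XTH19 passed without each of the 4 arrays in turn (at most adjusted p = 0.00533), and 2 or 3 members passed in each such fit. XTH33 no longer passed without dark replicate 2 (adjusted p = 0.0688) or light replicate 1 (adjusted p = 0.0887). XTH20 was lost without dark replicate 2 or either light array, XTH32 without dark replicate 1 or light replicate 2, and XTH27 without either dark array or light replicate 2. With wild-type arrays alone XTH27 (adjusted p = 0.138) and XTH32 (adjusted p = 0.0672) did not pass. There was no mock transfer in darkness, so the light and the handling cannot be told apart.

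In seedlings given BL, light again lowered XTH33 and raised XTH32. XTH32 rose 2.47-fold (1.30 ± 0.29, SE, adjusted p = 0.00758) and XTH33 was 3.72-fold lower (-1.89 ± 0.55, adjusted p = 0.0298). Here 1 of 7 rose and 1 fell, against 8.97% and 8.38% of all probe sets. XTH19 stood at -0.68 ± 0.27 (adjusted p = 0.1) and XTH20 at -1.24 ± 0.41 (adjusted p = 0.0555), and both passed with the replicate block (adjusted p = 0.00228 and 0.0212). XTH33 was lost without either dark BL-treated array or replicate 1 of those moved to light, where its fold lay between 2.28 and 6.02 over the 4 arrays, and XTH32 without dark BL-treated replicate 1 or light replicate 2, so that 0 members passed without dark BL-treated replicate 1. The effects of light with and without BL share no array, and the test of their difference is the interaction above, which did not pass.

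Light-grown det2 was set against dark-grown det2 to see the genes after growth in light throughout. XTH27 rose 2.14-fold (1.10 ± 0.13, SE, adjusted p = 4.13e-05), XTH33 was 4.36-fold lower (-2.12 ± 0.55, adjusted p = 0.00848) and XTH16 was 2.12-fold lower (-1.09 ± 0.34, adjusted p = 0.0239). So 1 of 7 rose and 2 fell, against 19.5% and 17.7% of all probe sets. XTH19 stood at -0.70 ± 0.27 (adjusted p = 0.055). Its adjusted p was 0.00096 with the replicate block, 0.000252 with det2 arrays alone and 0.0336 under quantile normalization. XTH20 stood at 0.94 ± 0.41 (adjusted p = 0.0929, and 0.0482 with the block), XTH18 at 0.44 ± 0.23 and XTH32 at -0.15 ± 0.29. The XTH20 value rests on the unequal dark arrays, its fold of 1.92 moving to 1.09 without dark replicate 1 (adjusted p = 0.803) and to 3.34 without dark replicate 2 (adjusted p = 0.00297), and with det2 arrays alone its adjusted p was 0.107. XTH33 was lost without light-grown replicate 1 (adjusted p = 0.118), which read 23, and its fold lay between 2.3 and 8.22. XTH16 was lost without any 1 of the 4 arrays, and XTH27 passed without each.

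Green det2 kept in the dark for 8 hours had more XTH27 and XTH16 transcript than light-grown det2. XTH16 was 2.47-fold higher (1.31 ± 0.34, SE, adjusted p = 0.0246) and XTH27 was 1.71-fold higher (0.78 ± 0.13, adjusted p = 0.00233). These 2 of 7 rose and 0 fell, against 5.98% and 6.4% of all probe sets. XTH33 stood at 1.53 ± 0.55 (adjusted p = 0.0917, and 0.0193 with the replicate block), while XTH18, XTH19, XTH20 and XTH32 lay between -0.24 and 0.40. The fold of XTH33, 2.89, moved to 1.53 without light-grown replicate 1 (adjusted p = 0.643) and to 5.46 without light-grown replicate 2 (adjusted p = 0.0242). XTH16 was lost without any 1 of the 4 arrays (at most adjusted p = 0.153). The groups also differ in age, 14 against 7 days, so age and the dark shift cannot be told apart.

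**Figure D3:**
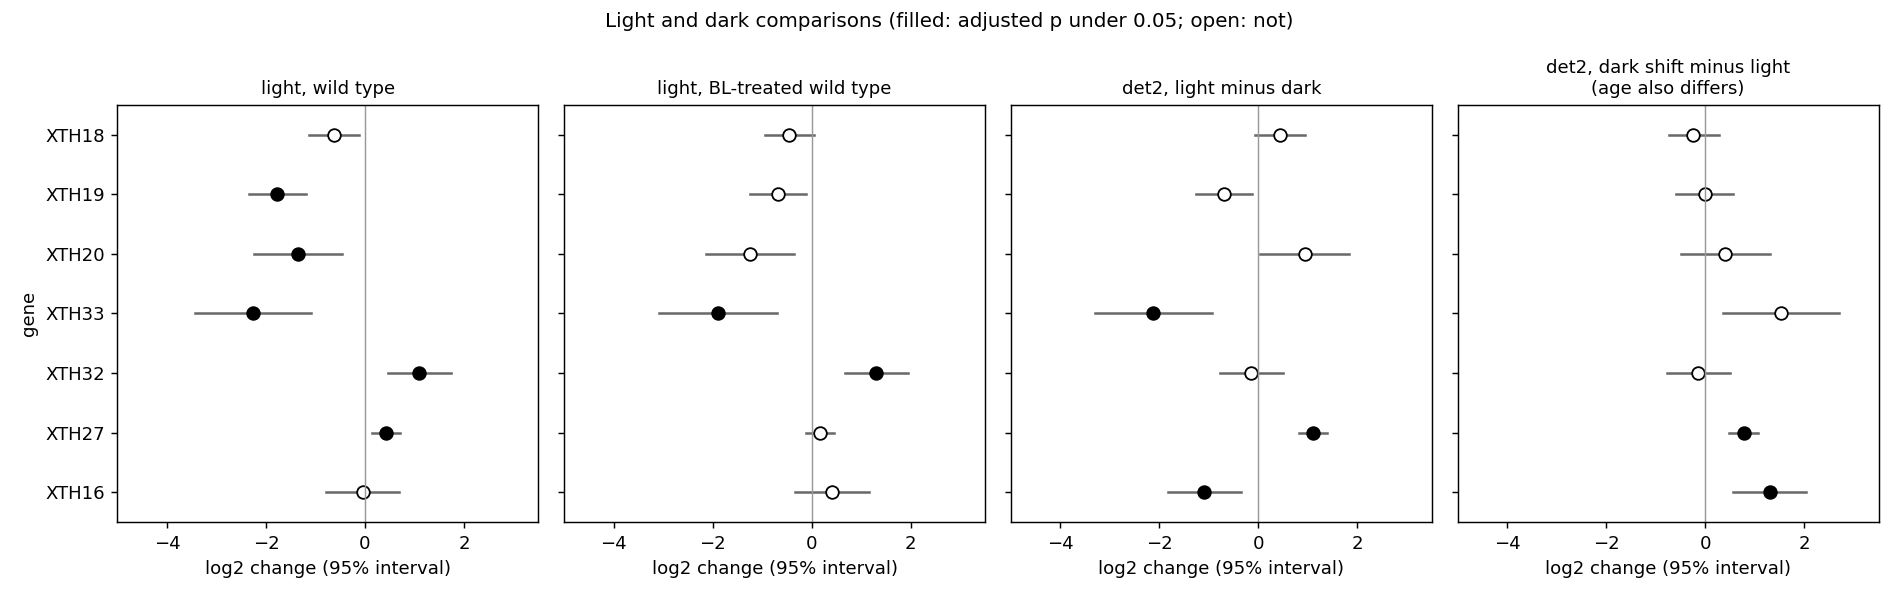
Log2 change of each XTH gene (point, with its 95% interval from the fit, not adjusted for many tests) for light in wild type, light in BL-treated wild type, light-grown minus dark-grown det2 and dark-shifted minus light-grown det2, filled where the adjusted p was under 0.05. XTH33 lies left of 0 in the 3 light comparisons, XTH32 lies right of 0 in both wild-type ones, and XTH27 lies right of 0 in both det2 ones.

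The genes fell into unlike patterns when followed over the 14 arrays. As a description, with groups and arrays shared by all genes, XTH19 correlated with XTH33 at r = 0.89, with XTH18 at 0.88 and with XTH20 at 0.85, on log2 signal. XTH27 correlated with the other 6 between -0.53 and 0.01, and XTH16 with the other 6 between 0.01 and 0.50. XTH32 lay between, at 0.75 with XTH18 and 0.37 with XTH33.

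**Figure D4:**
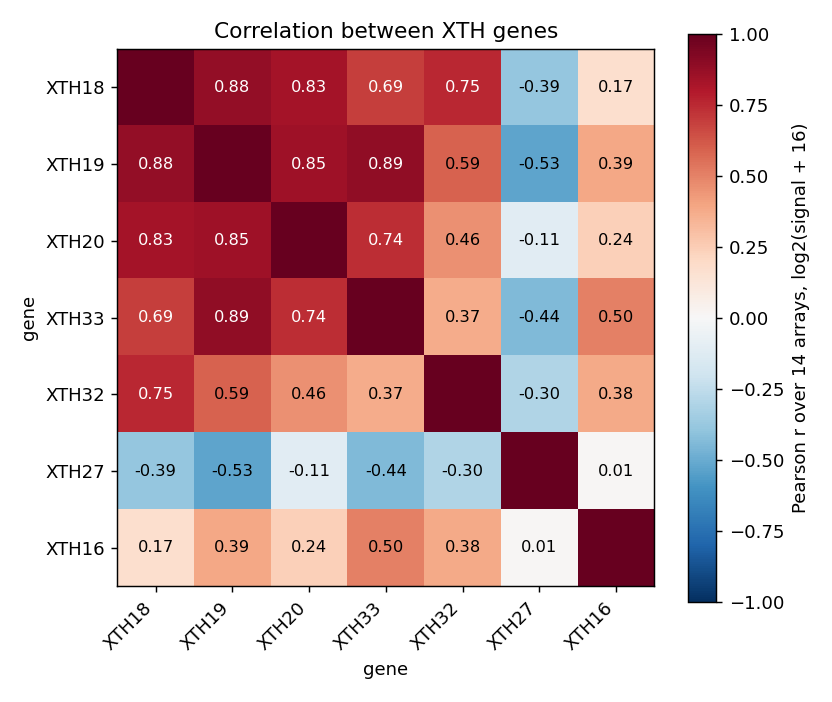
Pearson correlation between the XTH genes over the 14 arrays on log2(signal + 16), red for positive and blue for negative values. XTH18, XTH19, XTH20 and XTH33 form a block of 0.69 to 0.89, and XTH27 is at or below 0.01 with every other gene.

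Among 1307 other probe sets with a current gene symbol, the most similar profiles over the 14 arrays were named for each member. For XTH19 they were HMT-1 (r = 0.982), a homocysteine methyltransferase gene, and CSLC5 (r = 0.981), of the family that makes the xyloglucan backbone. For XTH33 they were IQD19 (r = 0.949), a calmodulin-binding family member, and CSLC4 (r = 0.932), a xyloglucan backbone synthase gene. XTH18 was followed by PRN (r = 0.950), a pirin gene, and BGLU15 (r = 0.949), and XTH20 by IDH-VI (r = 0.931) and BGLU15 (r = 0.907), the latter a beta-glucosidase gene. XTH32 lay nearest to CKS (r = 0.933), an enzyme gene for a sugar of the pectin rhamnogalacturonan, and to tny (r = 0.930), an AP2 transcription factor gene. XTH27 lay nearest to scpl31 (r = 0.890), a carboxypeptidase-like gene, and GME (r = 0.886), an epimerase gene for GDP-sugars. XTH16 had the least similar neighbours, EXLA1 (r = 0.774), an expansin-like gene, and THE1 (r = 0.749), a receptor kinase gene of the cell wall.

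Xyloglucan synthesis could be followed through 4 CSLC genes, which encode glucan synthases, out of 23 synthesis and trimming genes listed. CSLC4 read 2505 in dark wild type, 1068 after light and 2230 with BL and light (group means). It fell by 1.27 ± 0.22 on the log2 scale with light (SE, adjusted p = 0.00124) and rose by 1.09 ± 0.22 with BL in light (adjusted p = 0.015), and CSLC5 also passed in both, at -0.66 ± 0.15 and 0.66 ± 0.15. CSLC4, CSLC5 and CSLC6 were lower in dark det2 than in dark wild type, CSLC4 at -0.84 ± 0.22 and CSLC5 at -0.72 ± 0.15, so 3 of 4 fell and 0 rose, where 17.9% of all probe sets fell and 19.2% rose. With BL in the dark 0 of 4 passed in limma, where 1.53% of all probe sets rose and 1.89% fell. At an unadjusted p under 0.05 there were 2, beside 2615 of 17787 probe sets. The median change was 0.45 against 0.05 over all probe sets.

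Of 35 expansin genes listed, whose proteins loosen walls without cutting them, 16 were tested. In dark det2 8 of 16 fell and 0 rose, with EXPA18 at -1.68 ± 0.51 and EXPB1 at -1.56 ± 0.23 (SE), against 17.9% and 19.2% of all probe sets, and the median was -0.74 against 0.08. With BL in the dark 2 of 16 rose and 0 fell, EXLB1 (0.94 ± 0.23) and EXLA1 (0.70 ± 0.15), against 1.53% and 1.89% of all probe sets. With BL in light 4 rose, EXPA8 (1.03 ± 0.24) among them, and EXPA16 fell (-1.13 ± 0.28), against 2.17% and 2.08%. With light in wild type 1 rose and 4 fell, against 10.1% and 9.76%. Of 38 genes of brassinosteroid synthesis and signalling only BIM1, BRL1 and EXO were tested. With BL in the dark, with BL in light or in dark det2 against wild type 0 of 3 passed in limma. The shares of all probe sets in these comparisons are those given above for the expansins. At an unadjusted p under 0.05 there were 0 of 3, beside 2615, 3000 and 8233 of 17787 probe sets. With 3 genes this gives no reading of the group. EXO, known as a growth gene that brassinosteroids induce, stood at 0.46 ± 0.34 with BL in the dark and 0.25 ± 0.34 with BL in light. In dark det2 against wild type it stood at -0.05 ± 0.34. EXO fell by 1.73 ± 0.34 in light-grown det2 and rose by 2.17 ± 0.34 in the dark shift, both against the groups used above for XTH16. Of all probe sets 17.7% fell in the former comparison and 5.98% rose in the latter, where age also differs.

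Since XTH18, XTH19 and XTH20 are known from roots, markers of the root were read beside them. Of 23 listed, 3 had a named probe set, PYK10, a beta-glucosidase gene of roots and hypocotyls, and the root-hair expansin genes EXPA7 and EXPA18, which the expansin list also holds. None was at 0. Their summed signal, nearly all from PYK10, was 13309 to 14939 in dark wild type, 11386 to 11400 with BL, 12484 to 15006 after light, 11867 to 12047 with BL and light, 20583 to 23359 in dark det2, 15958 to 16402 in light-grown det2 and 14137 to 14706 after the dark shift. PYK10 was thus higher in dark det2 (0.69 ± 0.12, SE, adjusted p = 0.000865), EXPA18 was lower (-1.68 ± 0.51, adjusted p = 0.0208), and EXPA7, at -1.68 ± 0.67, did not pass (adjusted p = 0.0672). With BL in the dark 0 of 3 passed in limma, where 1.53% of all probe sets rose and 1.89% fell. At an unadjusted p under 0.05 there were 3, beside 2615 of 17787 probe sets. EXPA18 stood at -1.45 ± 0.51, EXPA7 at -1.5 ± 0.67 and PYK10 at -0.27 ± 0.12. The part of root tissue in the XTH differences was not tested.

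XTH26, a family member of root hairs, was the only other XTH gene above the filter. It read 6.8 and 6.3 in dark det2, 181 and 232.8 in light-grown det2, 154.8 and 205.6 after the dark shift, and 2.2 to 54.5 on the wild-type arrays. It passed the filter through both det2 groups that had been in light, so no test is given for it. Of the 3 root markers, EXPA7 (2.46 ± 0.67) and EXPA18 (1.49 ± 0.51) rose in light-grown against dark-grown det2, and PYK10 fell (-0.49 ± 0.12, SE). In that comparison 19.5% of all probe sets rose and 17.7% fell. None of XTH18, XTH19 and XTH20 passed there in the fit to all arrays without the replicate block. Under alternatives XTH19, lower in light, passed with det2 arrays alone, under quantile normalization and with the block, and XTH20, higher in light, passed with the block.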

How the data were processed

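The authors deposited 1 table of linear intensity values for 22810 probe sets on 14 one-colour Affymetrix arrays. The submitters' processing notes name MAS5 and limma without versions or roles. The trimmed mean (2% off each end) was 500 on every array, so values were already scaled, and each array was scaled to it again. Without the 64 control probe sets, 17787 whose mean reached 50 were kept. Values were tested as log2(value + 16), which understates changes of low genes. limma 3.58.1 in R 4.3.3 fitted 1 mean per group to all 14 arrays with a variance trend across all probe sets. The Benjamini-Hochberg adjustment ran over all probe sets in each of 9 comparisons, which share arrays, with a threshold of 0.05. Replicates are not stated to be separate cultures, so p-values measure the spread between arrays, which may be technical, and 2 arrays per group limit the precision.

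Names came from the supplied platform annotation (13513 probe sets with 1 gene, 503 with several, 8794 unnamed here) and RefSeq's TAIR10.1 gene table. All 7 members are named in each comparison, with up to 2 passing genes of each other list and the 2 most similar profiles per member. The members and lists were chosen with earlier results of these data known. Sequences of the genes were not used here. Alternatives were pseudocounts of 1 and 64, no filter, quantile normalization, the replicate block, arrays of 1 genotype, and each array left out. The fit was tested on simulated data, and figures were drawn with matplotlib 3.10.9.

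For pairing, deviations from group means correlated between same-numbered arrays at 0.226 to 0.429 in the 6 pairs of wild-type groups, at -0.0326 to 0.0164 in the 3 of det2 and at -0.0483 to 0.0417 in the 12 across genotypes. The pairing thus comes from the data, not the labels, and the block is a term in the wild-type arrays alone. It also narrows the shared estimate of the spread, and so changes calls in det2.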

Additional observations from a re-analysis of the deposited data

How the results depend on the processing

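Of 679 recomputed changes of single members, 595 kept their side of the threshold, 42 lost the call, 42 gained it and 0 reversed a called change. The 595 include changes called in neither fit, whose direction was not compared. With the replicate number as a block in the wild-type arrays, 3 members were called for BL in the dark, 5 for BL in light and 4 for light with BL. For det2 against wild type and for light-grown against dark-grown det2, 5 were called in each. The report gives 0, 2, 2, 3 and 3 for these comparisons. Calls over all 17787 probe sets rose with the block as well, from 608, 756, 3087, 6598 and 6614 to 1367, 1554, 4636, 8052 and 8051. In wild-type arrays alone with that block 4, 5 and 4 members were called for BL in the dark, BL in light and light with BL. The probe sets called there numbered 826, 1006 and 3516. In wild-type arrays alone 3 members were called for light in wild type (5 in the report), among 2253 probe sets in place of 3526. BL in the dark gave 3 with a pseudocount of 64 and 2 under quantile normalization, among 684 and 600 probe sets. Light with BL gave 1 with a pseudocount of 1, among 2998 probe sets. Leaving out each array in turn gave 2 to 3 for light in wild type, 1 to 2 for BL in light, 0 to 2 for light with BL, 1 to 3 for light-grown against dark-grown det2 and 1 to 2 for the dark shift, fewer samples being fitted. It gave 3 to 4 for det2 against wild type, 4 to 5 for det2 against BL-treated wild type and 0 for BL in the dark and the interaction. XTH33 lost its call for light with BL at a pseudocount of 1, and XTH20 its call for light in wild type with a pseudocount of 1, without the filter and under quantile normalization. Signals near 16 units depend most on the constant. Such are replicate 1 of XTH20 in dark det2 (26, against 111.8 in replicate 2) and of XTH33 in light-grown det2 (23, against 123.3). Detection calls were not used here.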

Other observations

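XTH21, a root-expressed family member, fell below the filter on low values and so entered no count above. Its signal, singled out after its values were seen, was 24.8 to 35.8 on the 4 wild-type arrays without BL, 3.1 to 5.4 on the 4 with BL, 6.8 and 8.2 in dark det2, and 4.5 to 20.8 on the 4 other det2 arrays. The groups with and without BL did not overlap, and XTH21 was lower with BL where XTH18, XTH19 and XTH20 had higher means. In a fit without the filter it was lower by 1.17 with BL in the dark, 1.20 with BL in light and 1.01 in dark det2 on the log2 scale. Several of its group means lay under the constant of 16. Because XTH21 was picked on these same values, no test is given for it. XTH29 read 5 to 115.1 over all arrays and did not pass in any of the 9 comparisons of the fit without the filter.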
